A study of Homo sapiens with 6 samples.

Results

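The genes described here are the 5 subunits of the transcription factor NF-kB (NFKB1, NFKB2, REL, RELA and RELB) and 5 of its direct targets (NFKBIA, TNFAIP3, TRAF1, BIRC3 and EBI3), taken by name as subunits and as targets known to be high in lymphoblastoid cells, with earlier results of these data known. They are 10 of the 23284 gene symbols in the expression tables, and 10 of 10 were among the 11134 genes that passed the filter for testing, a mean FPKM over 1 among controls or among lyophilized samples. The samples came from GM12873, a B-lymphoblastoid line, which is a culture of B cells immortalised with Epstein-Barr virus. Control cells (3 samples) were washed and dissolved in TRIzol, and lyophilized cells (3 samples) were freeze-dried in 0.1 M trehalose and kept at room temperature for 2 weeks before the same extraction. The labels give replicate numbers, and the paper pairs control 1, 2 and 3 with lyophilized 1, 2 and 3. Poly(A)-selected RNA was sequenced, and the level of a gene is given as FPKM, fragments per kilobase of transcript scaled to the number of mapped reads, which can be compared between genes within a sample. All 6 samples are of 1 cell line, and no other genotype or treatment was part of the comparison. The p-values measure only the spread between these samples, with variances partly shared across genes.

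NF-kB is a family of dimers that wait in the cytoplasm bound to inhibitor proteins and enter the nucleus when signalling destroys the inhibitor or trims a precursor. The canonical route works mainly through RELA or c-Rel with the processed product of NFKB1, and the non-canonical route through RELB with the processed product of NFKB2. In lymphoblastoid cells the viral membrane protein LMP1 imitates an active CD40 receptor and keeps both routes switched on. Many targets feed back on the factor: NFKBIA encodes the inhibitor that retains it in the cytoplasm, and TNFAIP3 encodes a ubiquitin-editing enzyme that shuts the upstream signal down.

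The promoters of these genes are shown because NF-kB binds a short DNA element, the kappaB consensus, and several of its targets, including subunit genes, are known to carry it near their start. RefSeq promoter windows (build GRCh38.p14, 250 bases before to 50 after a start) were used for 9 of the 10 genes, all but RELB. The consensus was searched on both strands, and 8 of the 15 windows held it, against 11.3% of all 35116 windows and 13.2% of the 11578 windows of tested genes. By gene, 7 of 9 had it in at least 1 window, against 17.0% of the 7957 tested genes with a window. It was found for 13 of 27 other targets (48.1%) and 9 of 29 pathway genes (31.0%) from the lists described below. The 9 genes were taken by name as known subunits and targets, so their high share is no independent result. Windows of like GC content were not compared. In the stretches below, read along the gene's own strand, capitals mark the bases covered by a match, and overlapping matches run together.
NFKB1: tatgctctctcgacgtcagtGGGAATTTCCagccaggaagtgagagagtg
NFKB2: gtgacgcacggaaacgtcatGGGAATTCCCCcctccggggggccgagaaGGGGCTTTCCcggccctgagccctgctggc
REL: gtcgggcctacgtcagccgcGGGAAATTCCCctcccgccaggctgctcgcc
NFKBIA: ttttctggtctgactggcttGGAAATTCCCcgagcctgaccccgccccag
TNFAIP3: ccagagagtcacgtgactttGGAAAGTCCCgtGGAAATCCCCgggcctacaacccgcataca
BIRC3: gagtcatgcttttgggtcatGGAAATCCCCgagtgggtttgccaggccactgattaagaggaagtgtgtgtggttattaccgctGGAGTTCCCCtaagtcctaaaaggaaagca
EBI3: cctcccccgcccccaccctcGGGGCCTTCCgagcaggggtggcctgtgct

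These stretches lie at chr4:102501290-102501339 (NFKB1, plus strand), chr10:102394451-102394529 (NFKB2, plus), chr2:60881507-60881557 (REL, plus), chr14:35404801-35404850 (NFKBIA, minus), chr6:137867172-137867233 (TNFAIP3, plus), chr11:102317265-102317378 (BIRC3, plus) and chr19:4229289-4229338 (EBI3, plus), all on GRCh38.p14. Counted from the transcription start, the first matched base was at -49 in NFKB1, -47 in REL, -67 in TNFAIP3 and -81 in NFKBIA. It lay farther out in the NFKB2 stretch shown, at -107, in BIRC3, at -199, and in EBI3, at -214. TNFAIP3 had its 2 matches 2 bases apart, and a further window of NFKB2 held 2 more, the first at -176. No match was found in the windows of RELA and TRAF1, which says only that these letters are not in those windows. A match is a description of the sequence, and binding was not measured here.

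The expression tables themselves are on hg19 and place NFKB1 at chr4:103422486-103538459, NFKB2 at chr10:104154229-104162281, REL at chr2:61108752-61150178, RELA at chr11:65421067-65430443 and RELB at chr19:45504707-45541456. Among the targets, NFKBIA is at chr14:35870716-35873960, TNFAIP3 at chr6:138188581-138204449, TRAF1 at chr9:123664671-123691451, BIRC3 at chr11:102188181-102210135 and EBI3 at chr19:4229540-4237524. Each locus has 1 record in the tables, with 1 FPKM value per sample for the gene as a whole.

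The label of the cells was checked against their markers. All 12 B-cell markers were above 1 FPKM in at least 1 sample, with a summed level of 3664 to 4891 FPKM in the controls and 3369 to 4529 after lyophilization. The 6 T-cell markers summed to 0.53 to 1.33 FPKM over the 6 samples and the 6 myeloid markers to 2.89 to 5.65. Fibroblast, epithelial and platelet or erythroid lists had 0, 1 and 0 genes above 1 FPKM. The tables hold no read counts, but the lowest values appeared to move in steps of whole reads, and the commonest ratio between samples gave an estimated relative depth of 1.38 and 1.66 for controls 2 and 3, and of 1.90, 1.84 and 1.53 for lyophilized samples 1 to 3, with control 1 set to 1. Control 1 was therefore the shallowest sample and lyophilized 1 the deepest. The raw reads per sample that the paper lists were also lowest for control 1 and highest for lyophilized 1.

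Every one of the 10 genes was detected in all 6 samples, over a wide span of levels. EBI3, which encodes a secreted subunit shared by several heterodimeric cytokines and was named for its induction by Epstein-Barr virus, had the highest mean FPKM of the 10. Its level was 453, 234 and 209.9 FPKM in controls 1, 2 and 3, and 415, 221 and 189 in the same order after lyophilization, and its control mean ranked 206 among the 11134 tested genes. REL, the gene of c-Rel, was the lowest at 4.20, 4.29 and 4.88 FPKM in the controls and 6.03, 3.57 and 5.03 after lyophilization, at rank 8193. In the controls the order by mean was EBI3, NFKBIA, NFKB2, TNFAIP3, TRAF1, NFKB1, BIRC3, RELA, RELB and REL. Only the steps from TRAF1 to NFKB1, from NFKB1 to BIRC3 and from RELB to REL separated neighbours whose ranges over the 3 controls did not overlap. Within single samples the order was steadier, since 7 of the 9 neighbouring steps had the same direction in all 3 controls. The exceptions were NFKB2 with TNFAIP3 and BIRC3 with RELA, whose order was kept in 2 of 3. After lyophilization TNFAIP3 stood above NFKB2 by mean, and the other places by mean were as in the controls. NFKB2 and TRAF1 were then nearly level, at a ratio of means of 1.006, with NFKB2 the higher in only 1 of 3 samples. RELA was above RELB in 2 of 3, and the other neighbouring steps had the same direction in all 3 lyophilized samples. These are bulk values, in which fewer cells with an mRNA and less of it per cell cannot be told apart.

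**Figure D1:**
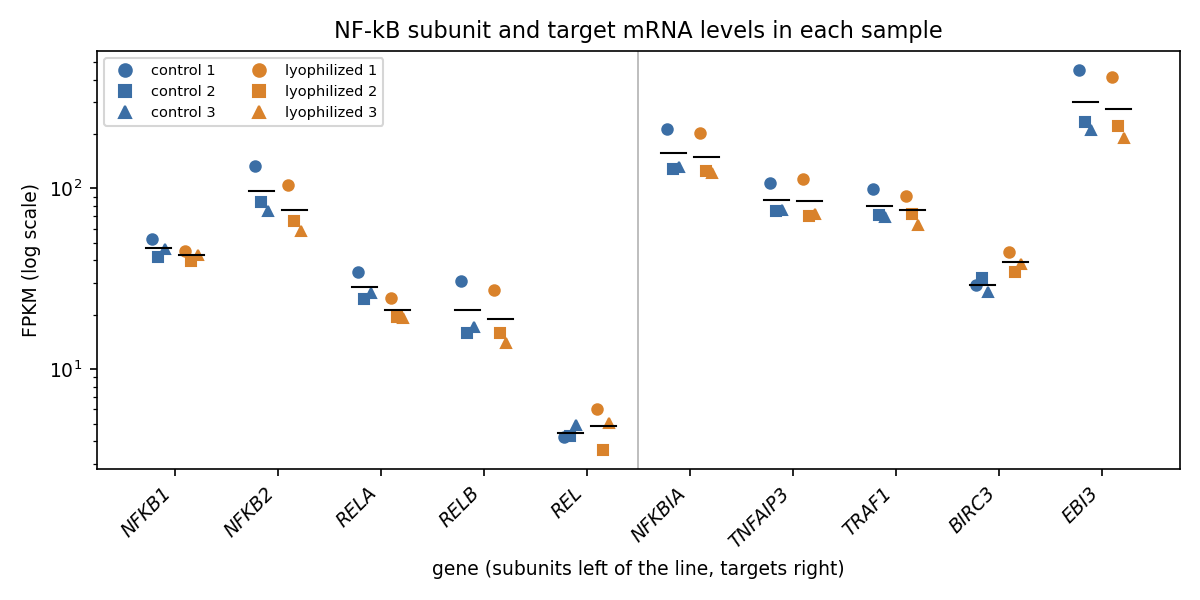
FPKM of the 5 subunit genes (left of the line) and 5 target genes (right) on a log axis, with 1 symbol per sample, blue for control and orange for lyophilized, circles, squares and triangles for samples 1, 2 and 3, and a black bar for the mean of 3. EBI3 lies highest and REL lowest, and the circles of sample 1 lie above the squares and triangles in both groups for 8 of the 10 genes.

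Among the subunits, NFKB2, the precursor of the non-canonical route, was the most abundant. It stood at 133, 83.6 and 74.8 FPKM in the controls and at 104, 65.6 and 57.8 after lyophilization. NFKB1, the precursor of the canonical route, had 52.3, 41.7 and 46.0 FPKM in the controls and 45.3, 39.9 and 43.0 after lyophilization. NFKB1 varied least among the subunits in the lyophilized samples, with a coefficient of variation of 6.36%, against 32.9% for NFKB2.

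RELA, the main transactivating subunit of the canonical route, was at 34.5, 24.4 and 26.4 FPKM in the controls and 24.9, 19.4 and 19.3 after lyophilization. RELB, its non-canonical counterpart, was at 30.6, 15.8 and 17.1 FPKM in the controls and 27.4, 15.8 and 14.0 after lyophilization. In both groups sample 1 had the highest value of RELA and of RELB, and the groups overlapped for both genes.

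Expressed as shares of the summed FPKM of the 5 subunit genes, NFKB2 made up 48.5% ± 4.04 (SD, n = 3) in the controls and 45.8% ± 4.34 after lyophilization. NFKB1 contributed 24.1% ± 3.35 and 26.8% ± 4.64, RELA 14.5% ± 1.03 and 13.1% ± 0.98, RELB 10.5% ± 1.41 and 11.4% ± 1.59, and REL 2.35% ± 0.64 and 2.99% ± 0.58. The ratio of the non-canonical pair (NFKB2 plus RELB) to the other 3 subunits was 1.79, 1.41 and 1.19 in the controls and 1.73, 1.30 and 1.07 after lyophilization. It was thus lower after lyophilization in all 3 pairs, and it was highest in pair 1 and lowest in pair 3 of both groups. The mean difference was -0.10, and without control 1 or without lyophilized 3 it was 0.06 and 0.05, settings that leave 1 pair incomplete. With whole pairs left out it stayed between -0.12 and -0.09. RELB over RELA went the other way, at 0.89, 0.65 and 0.65 in the controls and 1.10, 0.81 and 0.73 after lyophilization, higher after lyophilization in all 3 pairs. How often ratios of other genes moved alike in all 3 pairs was not counted. The transcripts of NFKB2 and RELB had the highest GC content of the 5, 61.2% and 64.9%, and neither ratio was computed with GC content corrected.

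Turning to the targets that act as brakes, NFKBIA reached 213, 129 and 132 FPKM in the controls and 202, 126 and 122 after lyophilization. TNFAIP3 had 107, 75.0 and 75.8 FPKM in the controls and 113, 70.1 and 72.6 after lyophilization. In both groups these 2 genes were high in sample 1 and nearly level between samples 2 and 3. NFKBIA mRNA exceeded RELA mRNA 6.18, 5.29 and 4.99 times in the controls and 8.11, 6.49 and 6.33 times after lyophilization.

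TRAF1, an adaptor of the tumour necrosis factor receptor family that LMP1 also recruits, was at 99.2, 71.2 and 69.3 FPKM in the controls and 91.3, 72.4 and 63.0 after lyophilization. BIRC3, a ubiquitin ligase that protects from cell death and takes part in the turnover of the kinase MAP3K14, was at 29.1, 32.0 and 26.6 FPKM in the controls and 44.3, 34.3 and 38.3 after lyophilization. The lowest lyophilized value of BIRC3 lay above its highest control value, which held for no other of the 10 genes. Over all tested genes 22.2% had groups that did not overlap, so that 1 of 10 is no more than the background.

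The comparison of lyophilized with control cells asked whether freeze-drying and dry storage shifted the measured levels. Suspension in trehalose, freezing, drying and storage cannot be told apart, since all lyophilized samples went through every step. Estimated depth also differed, at 1.90, 1.33 and 0.922 times that of the paired control in pairs 1 to 3, and its part was not tested. The subunit genes NFKB2 and RELA had lower FPKM than the paired control in each pair, as had NFKB1, RELB, NFKBIA and EBI3. The survival gene BIRC3 had higher FPKM in each pair. The changes of NFKB2, RELA and BIRC3 passed the test only when the pairing was used. Of these 3 genes, only RELA also passed with GC content corrected. The feedback inhibitors NFKBIA and TNFAIP3 stayed between 0.926 and 1.05 times the control in every pair. Fitted with the condition alone by limma on log2(FPKM + 0.1), where changes of low genes are understated, none of the 10 genes passed a Benjamini-Hochberg adjusted p of 0.05, against 0.575% of all tested genes (64 of 11134). At an unadjusted p under 0.05 there were 2 of 10, RELA and BIRC3, against 14.1% of all tested genes. The spread between the 3 samples of a group, in which sample 1 stood apart, set the width of these intervals: for EBI3 the 95% interval of the log2 fold change ran from -0.97 to 0.73 around -0.12, and for RELA from -0.81 to -0.03 around -0.42.

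Because the samples are paired, the same fit was also made with the pair as a block, and 3 of the 10 genes were then called. NFKB2 fell by 0.35 (log2, SE 0.05) with an adjusted p of 0.00134 in limma, and its FPKM was 0.787, 0.785 and 0.773 times that of the control in pairs 1 to 3. RELA fell by 0.42 (SE 0.06) with an adjusted p of 0.00230 in limma, at 0.722, 0.795 and 0.730 times the control. BIRC3 was higher by 0.41 (SE 0.09) with an adjusted p of 0.0104 in limma, at 1.52, 1.07 and 1.44 times the control. In this blocked fit 14.9% of all tested genes were called lower and 15.9% higher, so that 2 lower and 1 higher of 10 is near the background in each direction. Without pair 1, 2 or 3, the blocked fit called 3, 7 and 3 of the 10 genes, the 4 gained without pair 2 being NFKB1, RELB, TRAF1 and EBI3, all lower. The same 3 fits called 19.7%, 48.1% and 11.4% of all tested genes. With 1 pair left out, the variance of a gene was taken largely or wholly from the trend over all genes. These calls therefore say little about the spread of the gene itself. BIRC3 was not called when the variance trend was left out of the blocked fit, which left 2 of 10, against 14.8% of all tested genes.

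The remaining 7 genes did not pass in the blocked fit. Their log2 fold changes were -0.12 for NFKB1, -0.15 for RELB, -0.08 for NFKBIA, -0.03 for TNFAIP3, -0.08 for TRAF1, -0.12 for EBI3 and 0.10 for REL. The 95% intervals of NFKBIA and TNFAIP3 ran from -0.18 to 0.02 and from -0.15 to 0.09, so that changes of the size seen for RELA lay outside them. REL had the widest interval, from -0.22 to 0.42, and was 1.44, 0.83 and 1.03 times the control in pairs 1 to 3. By sign alone, NFKB1, NFKB2, RELA, RELB, NFKBIA and EBI3 were lower after lyophilization in all 3 pairs, 6 of 10 against 28.8% of all tested genes, although RELB in pair 2 differed by a factor of only 0.999. BIRC3 was the 1 gene of 10 that was higher in all 3 pairs, against 33.4% of all tested genes. The median log2 fold change was -0.10 over the 10 genes and 0.04 over all tested genes.

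**Figure D2:**
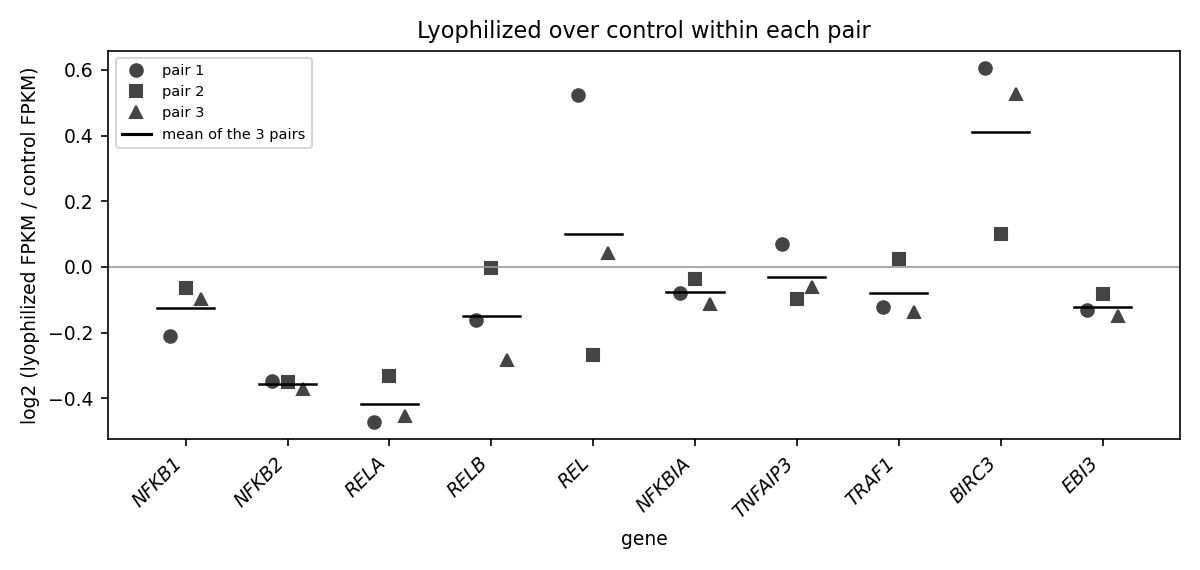
Log2 ratio of lyophilized to control FPKM within each pair (circle, square and triangle for pairs 1, 2 and 3) with the mean of the 3 pairs as a bar. The 3 pairs coincide for NFKB2 and lie close together below 0 for RELA, all 3 lie above 0 for BIRC3, and REL spreads on both sides of 0.

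Transcript base composition moved with these differences. GC content ran from 35.8% for BIRC3 and 38.4% for REL, over 49.3% for TNFAIP3, 50.1% for NFKB1, 53.0% for NFKBIA and 55.4% for TRAF1, to 58.6% for RELA, 59.6% for EBI3, 61.2% for NFKB2 and 64.9% for RELB. Over all tested genes with an annotated transcript, the median log2 fold change went from 0.29 below 40% GC to -0.25 above 60% GC. BIRC3, at 0.41, lay just above the upper quartile of 0.40 of the 409 genes within 1 point of its GC content. NFKB2, at -0.35, lay inside the quartiles of -0.42 and -0.08 of its neighbours in GC, as did NFKB1, RELB, NFKBIA, TNFAIP3, TRAF1 and EBI3 inside theirs. RELA, at -0.42, lay below the lower quartile of -0.33, and REL, at 0.10, below the lower quartile of 0.21. With a loess curve over GC content subtracted in each sample and the pair as a block, 1 of the 10 genes was called, RELA, which fell by 0.22 with an adjusted p of 0.0216 in limma, against 15.2% of the 10985 genes in that fit. NFKB2 was then at -0.10 (adjusted p = 0.184, limma) and BIRC3 at 0.09 (adjusted p = 0.362, limma). With GC content and length corrected together, RELA fell by 0.20 with an adjusted p of 0.0362 in limma and TRAF1 was higher by 0.17 with an adjusted p of 0.0336, while no other of the 10 passed, against 7.49% of all genes in that fit. What part base composition has in the differences was not tested beyond these fits.

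**Figure D3:**
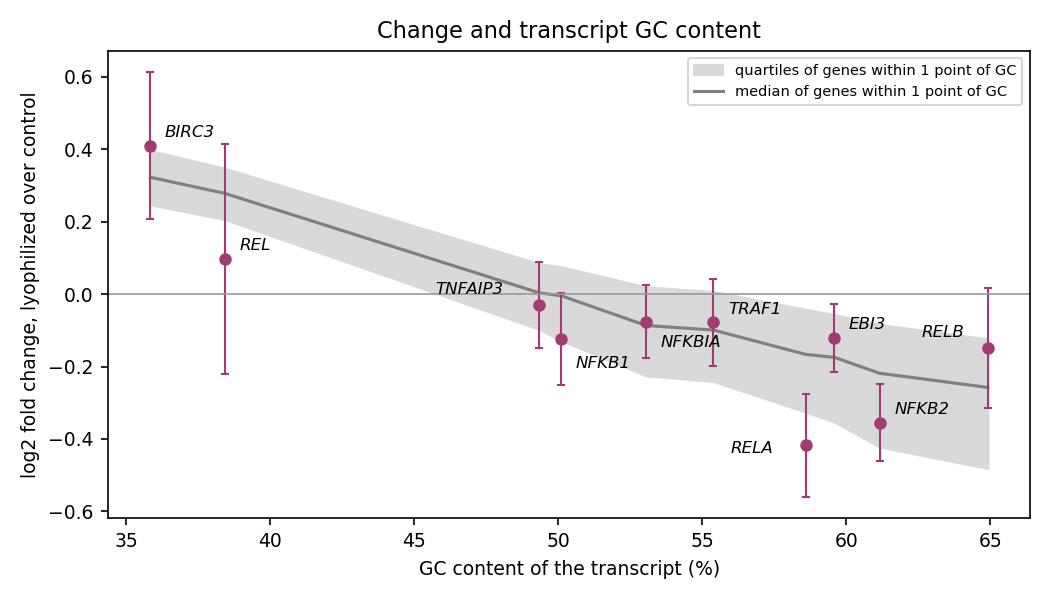
Log2 fold change of each of the 10 genes (lyophilized over control, points with 95% intervals from the blocked limma fit) against the GC content of its transcript in percent. The grey line and band join the median and quartiles of tested genes within 1 point of each gene's GC content, from 0.32 at BIRC3 down to -0.26 at RELB, and RELA and REL lie below the band.

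The transcripts also differed in length and in their 3′ ends. The REL transcript spans 11108 bases, of which 9077 are 3′ untranslated, and the EBI3 transcript 1158 bases. On hg19 the annotated REL gene runs to 61158747, past the end of its FPKM record at 61150178. Much of the annotated 3′ end may therefore lie outside what was measured. The length, GC content, ATTTA count and corrected fold changes given for REL all rest on the annotated transcript. The pentamer ATTTA, the core of elements that shorten the life of many cytokine and immediate early mRNAs, occurred 25 times in the 3′ untranslated region of REL, 9 times in that of BIRC3, 5 times in TNFAIP3, 3 times each in NFKB1 and NFKBIA, and 1 time each in NFKB2 and TRAF1. Per kb, the density was 6.76 in NFKB2, whose region is only 148 bases long, 6.00 in NFKBIA, 4.24 in NFKB1, 3.91 in BIRC3, 2.75 in REL, 2.51 in TNFAIP3 and 0.38 in TRAF1. RELA, RELB and EBI3 held none, and the median of tested genes was 1.69 per kb. No test was made of these features against the change.

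For most of the 10 genes the levels differed between the pairs, with pair 1 high in EBI3, RELB, NFKB2 and NFKBIA mRNA. In limma, an F test of the pair in the fit with condition and pair called 8 of the 10 genes, against 45.2% of all tested genes, and REL and BIRC3 did not pass (adjusted p = 0.186 and 0.411, limma). The smallest adjusted p belonged to EBI3, at 7.29e-06. EBI3 in sample 1 was 2.04 times the mean of samples 2 and 3 in the controls and 2.02 times after lyophilization. The same ratio was 1.87 and 1.84 for RELB, 1.68 and 1.69 for NFKB2, and 1.64 and 1.63 for NFKBIA. For these 4 genes the excess of sample 1 was nearly the same in control and lyophilized cells. It was 1.42 and 1.58 for TNFAIP3, 1.41 and 1.35 for TRAF1, 1.36 and 1.29 for RELA and 1.19 and 1.09 for NFKB1. REL and BIRC3 were the exceptions, with ratios of 0.91 and 0.99 in the controls but 1.40 and 1.22 in the lyophilized samples.

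For 8 of the 10 genes sample 1 was the highest of both groups, against 21.5% of all tested genes. The mean log2 level of pair 1 was above that of pairs 2 and 3 for 10 of 10 genes, against 36.6% of all tested genes, with a median of 0.52 and a range of 0.14 to 1.03. Over all tested genes the median of this difference was -0.12, so that relative to it the 10 genes stood still higher in pair 1. The median difference between pairs 2 and 3 was 0.02 over the 10 genes, and without pair 1 the F test called 1 of 10, EBI3 (adjusted p = 0.0420, limma), with 3 of 10 at an unadjusted p under 0.05, against 14.1% and 25.5% of all tested genes. The F tests with a pair left out were chosen after seeing the data. Like the blocked fits without a pair, they took the variance largely or wholly from the trend over all genes. When each sample was centred on its median, or GC content was corrected, 10 of 10 were called, against 43.6% and 52.7% of all genes. The labels do not say what else sets pair 1 apart, and culture, harvest and extraction cannot be told apart within a pair. Pair 1 held both the shallowest sample (control 1) and the deepest (lyophilized 1), and the part of depth in the pair differences was not tested.

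**Figure D4:**
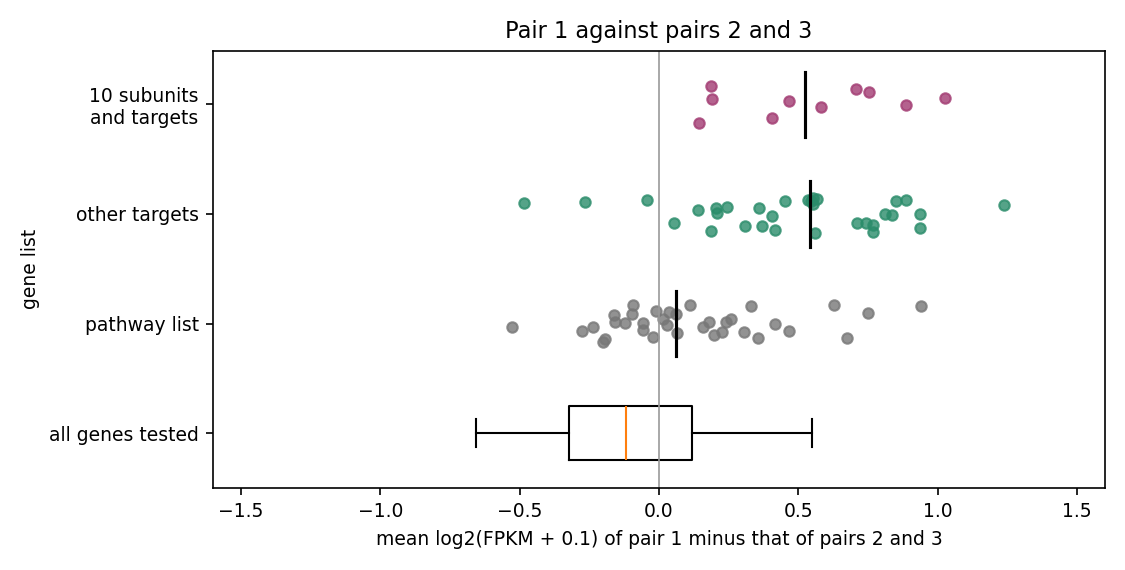
Mean log2(FPKM + 0.1) of pair 1 minus that of pairs 2 and 3, with 1 point per gene for the 10 subunits and targets, the 32 other targets and the 35 pathway genes, a black bar at each list's median, and a box for all 11134 tested genes (median and quartiles, whiskers at the 5th and 95th percentile). The 10 genes lie between 0.14 and 1.03, the other targets centre on 0.54, the pathway genes on 0.06 and all genes on -0.12.

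Other NF-kB targets that lymphoblastoid cells can use were taken from a list of 32 genes, all of them tested. In the pair comparison 30 of 32 passed in limma, LTA and TNFAIP8 being the exceptions, against 45.2% of all tested genes. In pair 1, 29 of 32 were higher, against 36.6% of all tested genes, with a median difference of 0.54. The 3 that were lower there, named after their values were seen, were IRF4 (-0.49), a transcription factor of B cells and plasma cells, SOD2 (-0.27), the mitochondrial superoxide dismutase, and TNFAIP8 (-0.04). The chemokine gene CCL3 had 584, 259 and 325 FPKM in the controls and 560, 289 and 326 after lyophilization, a further case, also picked after its values were seen, in which sample 1 stood apart alike in both groups.

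Between lyophilized and control cells, none of the 32 targets was called with the condition alone, with 3 at an unadjusted p under 0.05 (14.1% of all tested genes), and 11 were called with the pair as a block, 6 lower and 5 higher, against 30.7% of all tested genes in both directions together, with a median log2 fold change of -0.002 over the list. KDM6B, a histone demethylase, had 11.7, 5.04 and 7.80 FPKM in the controls and 4.69, 2.48 and 3.51 after lyophilization and fell by 1.14 (adjusted p = 0.000259, blocked limma). The authors, who compared the groups with Cuffdiff, listed KDM6B among their genes lower after lyophilization. CCL22, a chemokine that attracts T cells, had 346, 245 and 226 FPKM in the controls and 250.3, 187 and 156 after lyophilization and fell by 0.46 (adjusted p = 0.000389, blocked limma). Both were lower in the lyophilized sample of each pair, and both were also called after the correction for GC content, at -0.87 and -0.35. The other 4 lower genes were TNFAIP2, ZC3H12A, which encodes an RNase that degrades inflammatory mRNAs, the adhesion gene ICAM1 and the phosphatase gene DUSP2, at -0.39, -0.38, -0.30 and -0.18. The survival gene BCL2A1, the death receptor gene FAS, TNFAIP8, SOD2 and the costimulatory gene CD86 were higher, by 0.37, 0.36, 0.34, 0.24 and 0.21. After the correction for GC content 6 of the 32 were called, against 15.2% of all genes. Of the 11 genes of the blocked fit 9 lost their call, among them all 5 that had been higher. Calls over all genes fell as well, from 30.7% to 15.2%, and how many of the earlier ones were lost was not counted. BCL2A1 was then at 0.15 (adjusted p = 0.0926, limma) and SOD2 at 0.05 (adjusted p = 0.547, limma), and DUSP2 turned to 0.13 (adjusted p = 0.0525, limma). The 4 genes called higher in that fit, LTB (0.24), CCL3 (0.14), GADD45B (0.22) and CD70 (0.25), had not been called before the correction.

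The list of further pathway genes held 36 inhibitors, kinases, adaptors and receptors, of which 35 were tested. LTBR, the lymphotoxin beta receptor gene, was below the filter, at 0.35, 0.14 and 0.19 FPKM in the controls and 0.14, 0.13 and 0.08 after lyophilization. In the pair comparison 14 of 35 passed in limma, against 45.2% of all tested genes, and 21 of 35 were higher in pair 1, against 36.6%. The inhibitor gene NFKBIE, picked after its values were seen, had the largest excess in pair 1, at 0.94, with 87.3, 42.7 and 48.0 FPKM in the controls and 83.8, 42.8 and 44.7 after lyophilization. CD40, the receptor that LMP1 imitates, was higher in pair 1 by 0.75 and was likewise picked after its values were seen.

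None of the 35 was called between lyophilized and control cells with the condition alone, with 6 at an unadjusted p under 0.05 (14.1% of all tested genes). With the pair as a block 15 were called, 8 lower and 7 higher, against 30.7% of all tested genes, 14.9% lower and 15.9% higher. BCL3, an atypical inhibitor family member that acts in the nucleus, had 14.7, 9.37 and 13.0 FPKM in the controls and 10.2, 6.76 and 7.29 after lyophilization and fell by 0.61 (adjusted p = 0.00230, blocked limma). BIRC2, the close relative of BIRC3, had 9.24, 10.1 and 9.29 FPKM in the controls and 14.1, 12.1 and 12.6 after lyophilization, and was higher by 0.43 (adjusted p = 0.00704, blocked limma). MAP3K14, the kinase that starts the non-canonical route, was lower by 0.37 and NFKBID, an atypical inhibitor, by 0.37. RBCK1, SHARPIN and RNF31, which form the linear ubiquitin ligase, were lower by 0.29, 0.29 and 0.25, and TRAF2, an adaptor upstream of the kinases, by 0.26. The kinase gene TBK1, TAB2, which links a kinase to ubiquitin chains, and TANK, a binding partner of TBK1, were higher by 0.36, 0.30 and 0.30. After the correction for GC content 4 of the 35 were called, against 15.2% of all genes. Of the 15 genes of the blocked fit 14 lost their call, BCL3, at -0.27, being the exception. Calls over all genes fell as well, from 30.7% to 15.2%, and how many of the earlier ones were lost was not counted. BIRC2 was then at 0.15 (adjusted p = 0.120, limma), MAP3K14 at -0.15 (adjusted p = 0.104, limma) and TRAF2 and TANK near 0. The 3 genes called higher in that fit, NFKBIE (0.18), TNIP2 (0.23) and TRADD (0.21), had not been called before the correction, where they stood at -0.05, -0.02 and -0.11. The median log2 fold change over the 35 genes was -0.06, against 0.04 over all tested genes.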

How the data were processed

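Poly(A) RNA of 3 control and 3 lyophilized samples was sequenced from 1 end. The authors aligned reads that mapped to a unique position with TopHat2 2.0.7 to hg19 (GRCh37), flagged duplicates and deposited FPKM values computed with Cufflinks, 1 table of 24934 records per sample. The submitters' processing notes also name CASAVA 1.4. Neither a Cufflinks version nor the gene annotation is given in the sources used here, and the tables hold no read counts, so that no counting interval was computed. Reads shared by near-identical genes were dropped by the authors, and strand was not stated to be used.

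From these values, 1 record per symbol (the highest mean) was kept, small RNA symbols were left out, and 11134 genes averaging over 1 FPKM among controls or among lyophilized samples were compared on log2(FPKM + 0.1) by limma 3.58.1 (R 4.3.3), with a variance trend and Benjamini-Hochberg adjustment over all genes tested, at 0.05. The condition was fitted alone, and also with the pair as a block. The authors compared the groups with Cuffdiff, so their calls can differ from those of limma. The pairing follows the replicate numbers in the labels and the sample pairs listed in the paper. Deviations from the group means correlated within pairs 1, 2 and 3 at r = 0.716, 0.603 and 0.476 across 11134 genes. A moderated F test compared the pairs. Loess curves (span 0.3, degree 2) over GC content, or over GC content and length, used the GENCODE transcripts of GRCh37, found for 98.7% of tested genes. Relative depth came from values under 0.3 FPKM. The fits were also run on simulated data with independent genes and no shift linked to GC content. Such data cannot show how the calls behave where such a shift is present. Python 3.11.15, numpy 2.4.6, pandas 2.3.3 and matplotlib 3.10.9 were used for the rest. Alternatives covered the pseudocount, the filter, the scaling, the variance trend, the records of a symbol, the block, the corrections and each sample or pair left out. The genes, the lists of other targets and pathway genes and the promoter search were chosen with earlier results of these data known. From the lists, genes were named where the condition or blocked fit called them, at most 12 per list, or where the mean was under 1 FPKM in both groups, unless said otherwise.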

Additional observations from a re-analysis of the deposited data

How the results depend on the processing

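Against 64 genes called with the condition alone, and 0 of the 10 genes, 0 pathway genes and 0 other targets, the replicate block called 3423 genes, 3 of the 10, 15 pathway genes and 11 targets. With the block and GC content corrected these counts were 1670, 1, 4 and 6, and with length added 823, 2, 4 and 2. With the block and samples centred on their median they were 3674, 3, 18 and 11, with quantile normalization 3510, 5, 18 and 16, with a pseudocount of 1 3436, 3, 15 and 11, and without a variance trend 1649, 2, 6 and 6, all 4 settings chosen after seeing the data. Without a filter on low values and without the block, no gene was called by limma (2069 at an unadjusted p under 0.05). Over the fits that leave out 1 sample or 1 pair, the counts ran from 0 to 5359 genes, 0 to 7 of the 10, 0 to 22 pathway genes and 0 to 20 targets, the higher ends with the pair as a block and pair 2 left out. With the block, the fits without pair 1, 2 or 3 called 2194, 5359 and 1264 genes. The variance in these 3 fits came largely or wholly from the trend over all genes.

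Between pairs, 5036 genes and 8 of the 10 were called, and with 1 pair left out 1573 to 5505 genes and 1 to 8 of the 10, the lower ends without pair 1. For this F test, the settings with 1 pair left out were chosen after seeing the data. Directions turned with GC content corrected for REL (-0.17), RELB (0.18), NFKBIA (0.040), TRAF1 (0.074) and EBI3 (0.10), and with length added for REL (-0.17), RELB (0.17), TNFAIP3 (0.037) and TRAF1 (0.17). With samples or pairs left out, log2 fold changes ran from -0.46 to 0.22 for EBI3, -0.31 to 0.16 for NFKBIA, -0.44 to 0.15 for RELB, -0.25 to 0.14 for TNFAIP3, -0.22 to 0.088 for TRAF1 and -0.11 to 0.30 for REL, which was -0.069 without lyophilized 1. TNFAIP3 was at 0.0046 with the block and without pair 2. NFKB1, NFKB2, RELA and BIRC3 kept their direction in every fit. The cause of these shifts was not tested. Where a fit left 1 pair incomplete, the differences between pairs entered the difference between the groups. The number of reads behind the value of each gene is unknown, although the paper lists raw reads per sample. REL, at 3.57 to 6.03 FPKM, had the lowest level of the 10 genes and the widest interval in the blocked fit.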
